A study of Mus musculus with 15 samples.

Results

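The transcripts described here are encoded by the mitochondrial genome itself. They were chosen by gene symbol, and 10 symbols were named: the complex I subunits mt-Nd1, mt-Nd2, mt-Nd4 and mt-Nd5, the complex III subunit mt-Cytb, the complex IV subunits mt-Co1, mt-Co2 and mt-Co3, the ATP synthase subunit mt-Atp6, and the large ribosomal RNA mt-Rnr2. Of these, 8 were analysed among the 18279 genes of the series, and mt-Co2 and mt-Atp6 were not analysed here. The table holds 7 further mitochondrially encoded genes, which are the ribosomal RNA mt-Rnr1, the subunits mt-Nd3, mt-Nd6 and mt-Atp8, and the transfer RNAs mt-Tp, mt-Tq and mt-Tt. RNA was sequenced in bulk from 15 tumors of Renca, a mouse renal carcinoma line, grown under the skin of female BALB/c mice that were 4 to 6 weeks old when bought. Tumors 1 to 5 came from control cells, tumors 6 to 10 from Pbrm1 knockout clone 4 and tumors 11 to 15 from Pbrm1 knockout clone 18. The sample labels call the control cells parental, whereas the series' design text calls them control knockout. Each group is 1 cell line, so genotype and line cannot be told apart. All tumors were grown in Matrigel, and the labels do not say which mice, if any, had received PD-1 antibody.

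Mitochondria keep a small circular genome, which is present in many copies per cell. Both of its strands are transcribed as long precursors that cover many genes, and transfer RNAs between the genes are cut out to release the individual messenger and ribosomal RNAs. The proteins it encodes are core subunits of the respiratory chain and of ATP synthase, while the remaining subunits, and the factors that copy, transcribe and translate this genome, are made from nuclear genes. In the reference annotation (GENCODE M21, on GRCm38, the assembly also called mm10), it holds 13 protein-coding genes, 2 ribosomal RNA genes and 22 transfer RNA genes.

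The sequences of 2 places on this genome are shown beside the values that follow. The first is the stretch that joins mt-Rnr2 (chrM:1094-2675) to mt-Nd1 (chrM:2751-3707), both on the + strand, because the ratio of these 2 transcripts varied between the groups. The genes are separated only by the leucine transfer RNA gene mt-Tl1 (chrM:2676-2750). Reads over these boundaries were not examined, and any part of this stretch in the ratio was not tested. In the lines below, capitals mark the bases after each boundary.
mt-Rnr2 to mt-Tl1, chrM:2661-2690: aacctagagaaggttATTAGGGTGGCAGAG
mt-Tl1 to mt-Nd1, chrM:2736-2765: atcctctccctaataGTGTTCTTTATTAAT

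The second is the stretch from the end of mt-Co1 to the middle of mt-Nd4, which has a nearly identical copy in the nuclear genome on chromosome 1 (chr1:24611535-24616197, - strand). The annotation names 7 pseudogenes there, and they differ from the mitochondrial genes at 2 of 4140 aligned bases. The following lines show both places, with the differing base in capitals and each copy read on its own strand. Counted from the first base of the mitochondrial gene, the differences are A1066T in mt-Co1 and T3C in mt-Nd3.
mt-Co1, chrM:6390-6423: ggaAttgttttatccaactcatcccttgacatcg
Gm29216, chr1:24616155-24616188: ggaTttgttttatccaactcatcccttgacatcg
mt-Nd3, chrM:9459-9491: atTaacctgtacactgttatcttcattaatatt
Gm28438, chr1:24613087-24613119: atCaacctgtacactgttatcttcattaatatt
A read from this stretch matches both places, and such reads can be left out or placed by chance in a count per gene. The copies Gm28437 of mt-Co3 (783 bases), Gm28439 of mt-Nd4 (876 bases), Gm28661 of mt-Co2 and Gm10925 of mt-Atp6 had 0 differing bases. None of the 7 pseudogenes was analysed here. A further copy, Gm13340 on chromosome 2, matches mt-Co1 over 1545 bases at 97.6% identity, and it had a normalized count of 72.2 to 279, far under that of mt-Co1.

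Between 32924414 and 49099168 reads per tumor were assigned to the genes of the table, and the middle tumor had 40860659. The values are counts divided by a size factor for each tumor, called normalized counts here. Pbrm1 itself, a subunit of a chromatin remodelling complex, averaged 9012 ± 956 normalized counts over the control tumors (SD, n = 5) and 2794 ± 205 over the knockout tumors (SD, n = 10), without overlap. The libraries also held abundant RNAs that lack a poly(A) tail, since the nuclear RNA Rn7sk took 1.58% to 2.88% of the normalized total. Markers of renal epithelium were present in each tumor, with a summed normalized count between 98536 and 138646 over 10 genes.

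The 8 transcripts covered a wide range of levels, which is best compared per length. Per 1000 bases, the mean normalized count over the 15 tumors was 313973 for mt-Rnr2, 134636 for mt-Co1, 18263 for mt-Cytb and 16046 for mt-Nd1. It was 4560 for mt-Nd5, 2551 for mt-Nd2, 2244 for mt-Nd4 and 34.4 for mt-Co3. Among the further mitochondrial genes, mt-Rnr1 reached 104843 per 1000 bases, mt-Nd6 1366, mt-Atp8 669 and mt-Nd3 97.6. The ribosomal RNAs and mt-Co1 thus stood at the top, and the complex IV subunit mt-Co3 at the bottom, although mt-Co1 and mt-Co3 encode 2 subunits of the same enzyme. Within single tumors the order held in all 15 for mt-Rnr2 over mt-Co1, for mt-Nd1 over mt-Nd5 and for mt-Nd5 over mt-Nd2. Neighbours that were not separated were mt-Cytb and mt-Nd1, where mt-Cytb was the higher in 8 of 15 tumors, and mt-Nd2 and mt-Nd4, where mt-Nd2 was the higher in 12.

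Among the messenger and ribosomal RNAs, the lowest levels were those of mt-Co3 and mt-Nd3, which also had the most sequence in common with annotated nuclear transcripts of those with a value here. Of all stretches of 50 bases in a gene, 99.9% in mt-Co3 and 98.0% in mt-Nd3 were also found in such a transcript. The share was 62.2% in mt-Nd4, 51.1% in mt-Co1, 8.2% in mt-Nd2, 7.6% in mt-Nd5 and 1.0% in mt-Rnr2. It was 0% in mt-Nd1, mt-Cytb, mt-Rnr1, mt-Nd6 and mt-Atp8. However, mt-Atp8 lies within the stretch copied on chromosome 1, mostly in a gap of 233 bases between Gm28661 and Gm10925. No transcript is annotated in that gap, so the 0% of mt-Atp8 does not show that it lacks a nuclear copy. The transfer RNAs mt-Tp and mt-Tq were at 0% as well, although their levels of 38.8 and 79.9 per 1000 bases were as low as those of mt-Co3 and mt-Nd3. For mt-Co2 and mt-Atp6, the members without a value here, the share was 100% and 99.5%. With stretches of 100 bases the share was 99.9% in mt-Co3, 97.6% in mt-Nd3, 60.8% in mt-Nd4 and 30.8% in mt-Co1. It was then 3.2% in mt-Nd2 and 0% in mt-Nd5 and mt-Rnr2. The whole count of a gene was also divided by its number of 50-base stretches that are not shared. Per 1000 such stretches the value was 6160 for mt-Nd4, 16911 for mt-Nd1 and 284559 for mt-Co1, or 208013 for mt-Co1 with stretches of 100 bases. Reads from shared sequence stay in that count. The part of shared sequence in these levels was not tested, since the read length and the handling of reads with several matches are not given in the sources used here. mt-Co1, at a share of 51.1% or 30.8% by the length of the stretch, was among the highest genes.

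**Figure D1:**
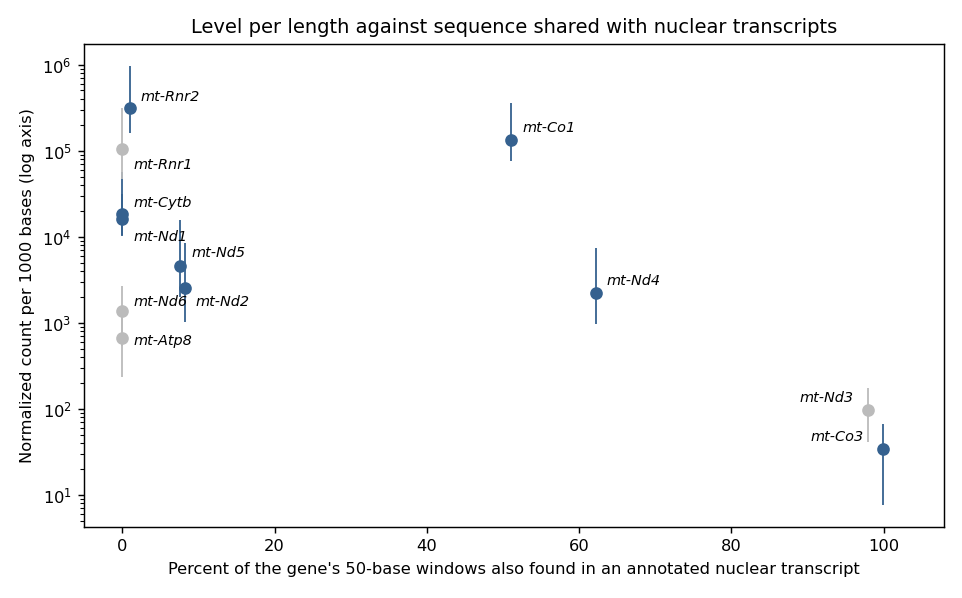
Mean normalized count per 1000 bases over 15 tumors (vertical, log axis) against the percentage of a gene's 50-base stretches also found in an annotated nuclear transcript (horizontal). Bars run from the lowest to the highest tumor, blue points are the 8 transcripts and grey points are other mitochondrially encoded genes. Among the genes plotted, which leave out the transfer RNAs, mt-Co3 at 99.9% and mt-Nd3 at 98.0% are lowest, while mt-Co1 at 51.1% is near the top.

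mt-Atp8 and mt-Atp6 overlap on the same strand, which matters for any count by gene. The 43 shared bases run from the start codon of mt-Atp6 to the stop codon of mt-Atp8, both in capitals.
mt-Atp8 and mt-Atp6, chrM:7927-7969: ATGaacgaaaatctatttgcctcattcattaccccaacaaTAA
mt-Nd5 and mt-Nd6 overlap as well, but on opposite strands, and mt-Nd6 is the only messenger RNA read from the other strand. Whether reads were counted by strand is not given in the sources used here, so reads over the shared bases of mt-Nd5 and mt-Nd6 are uncertain.

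The large ribosomal RNA mt-Rnr2, which forms the catalytic core of the mitochondrial ribosome, was the third most abundant gene of the whole table. Its normalized counts in control tumors 1 to 5 were 319918, 421093, 351659, 557935 and 358049. In clone 4 tumors 6 to 10 they were 256545, 318058, 472163, 472350 and 1525918, and in clone 18 tumors 11 to 15 they were 505709, 693491, 479218, 301730 and 416749. The 3 groups overlapped, and tumor 10 stood far above all others. The control mean was 401731 ± 94715, that of clone 4 was 609007 ± 521299 and that of clone 18 was 479379 ± 143195 (SD, n = 5 each). The log2 difference between knockout and control was 0.27 (95% interval -0.39 to 0.93, adjusted p = 0.595 from limma), and 0.08 without tumor 10 (adjusted p = 0.833).

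mt-Co1, the catalytic subunit of complex IV, was the most abundant messenger RNA among the 8. In the control tumors its normalized counts were 150514, 177502, 179013, 269449 and 163065. They were 155901, 124829, 196888, 208952 and 549623 in clone 4 and 230353, 293059, 137541, 116500 and 166999.8 in clone 18. Each knockout group reached from below the lowest to above the highest control tumor. The log2 difference between knockout and control was 0.08 (95% interval -0.51 to 0.68, adjusted p = 0.875 from limma).

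mt-Nd1, a membrane subunit of complex I and the gene next to mt-Rnr2, gave the lowest unadjusted p among the 8. Its normalized counts were 12910, 16586, 17584, 20361 and 17741 in the control tumors. They were 10545, 10398, 16483, 16937 and 29784 in clone 4 and 15819, 15144, 10197, 9692 and 10155 in clone 18. In clone 18, 3 of 5 tumors lay below every control tumor and none above the highest, whereas clone 4 reached both below and above the control range. The mean was 17036 ± 2696 (SD, n = 5) in the control and 12201 ± 3010 (SD, n = 5) in clone 18. The log2 difference between them was -0.50 (95% interval -0.99 to -0.01), with an unadjusted p of 0.0476 and an adjusted p of 0.133 from limma, and an exact permutation test gave an unadjusted p of 0.0476, so it did not pass the threshold. Without tumor 10, which is not in this comparison but enters the estimate of the spread, the difference was the same and the adjusted p was 0.0484. In clone 4 the log2 difference from the control was -0.12 (95% interval -0.61 to 0.38, adjusted p = 0.801 from limma), and between the clones it was -0.38 (95% interval -0.88 to 0.11, adjusted p = 0.412 from limma).

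mt-Co3, another core subunit of complex IV, had few reads. Its normalized counts were 27.9, 25.5, 32.5, 32.5 and 29.6 in the control tumors, from 24 to 35 reads. They were 9.6, 12.4, 31.8, 34.1 and 52.4 in clone 4 and 39.8, 33.2, 9.2, 6.0 and 28 in clone 18. Tumors 6, 7, 13 and 14, which are 2 tumors of each clone, held only 6 to 13 reads of it, while 4 knockout tumors lay above every control tumor. Its SD among control tumors was 3.02, against 17.5 for clone 4 and 14.9 for clone 18 (n = 5 each). The log2 difference between knockout and control was -0.48 (95% interval -1.38 to 0.43, adjusted p = 0.477 from limma).

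The remaining members showed the same overlap between groups. mt-Cytb, the core subunit of complex III, had a normalized count of 12652 to 26532 in the control, 11852 to 64419 in clone 4 and 13281 to 27401 in clone 18. mt-Nd5, a membrane subunit of complex I, ranged from 4623 to 9174 in the control, from 3663 to 28435 in clone 4 and from 5952 to 10926 in clone 18. The complex I subunit mt-Nd4 spanned 1574 to 3734, 1315 to 10157 and 2128 to 4532 in the same order of groups, and mt-Nd2 spanned 1358 to 3172, 1056 to 8710 and 1601 to 3134. In each of these 4 genes the highest value was that of tumor 10. The log2 differences between knockout and control were -0.04 for mt-Cytb (95% interval -0.68 to 0.60), 0.27 for mt-Nd5 (-0.40 to 0.95), 0.25 for mt-Nd4 (-0.46 to 0.96) and 0.10 for mt-Nd2 (-0.60 to 0.80). Without tumor 10 they were -0.24, 0.07, 0.05 and -0.11 in the same order, none called.

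**Figure D2:**
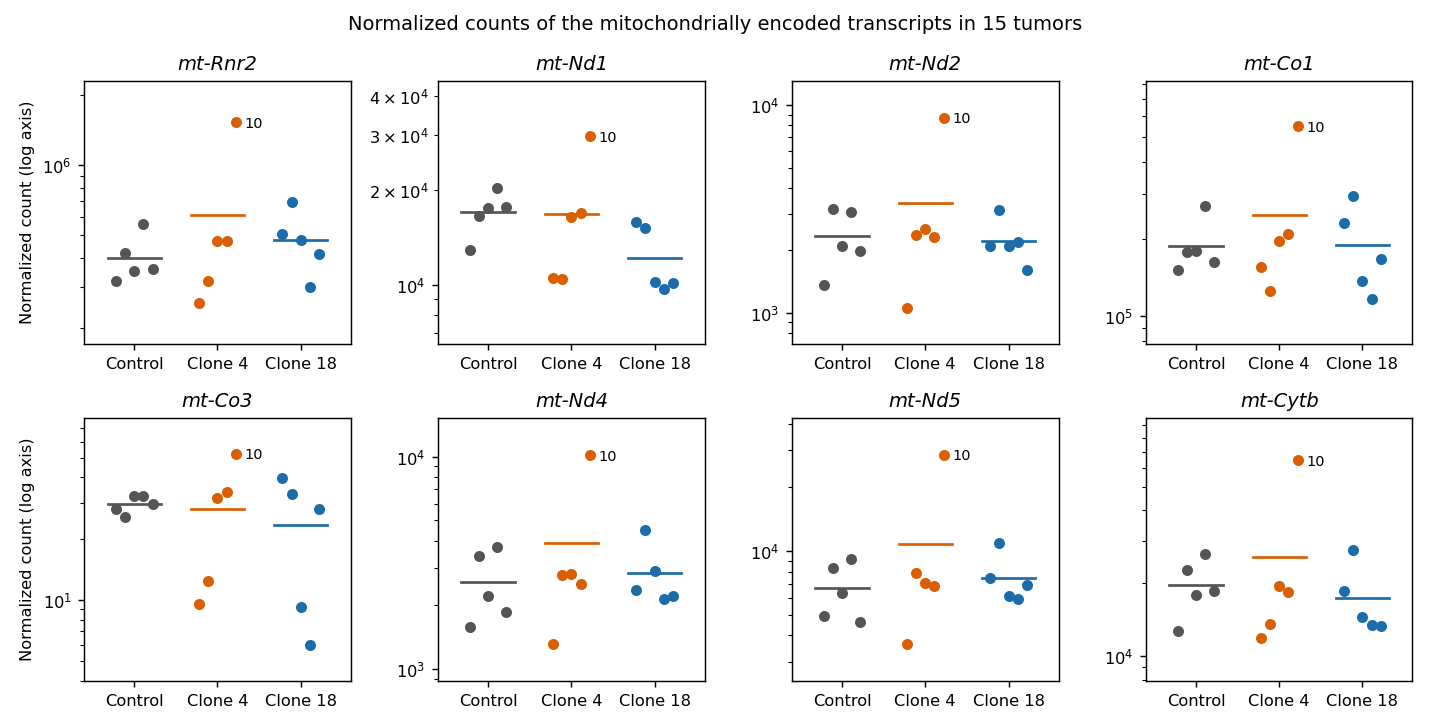
Normalized count (vertical, log axis, a separate scale for each gene) of the 8 transcripts in the 15 tumors. Each point is 1 tumor and lines are the means of 5 tumors in the control, clone 4 and clone 18. The groups overlap for each gene, and tumor 10 of clone 4, marked, is the highest in each panel, with 1525918 for mt-Rnr2.

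None of the 8 transcripts passed the test between Pbrm1 knockout and control tumors. Over all genes, 22.1% passed the threshold of an adjusted p under 0.05 in this comparison, and 0 of 8 did here, with 0 of 8 also at an unadjusted p under 0.05. For clone 4 against the control the share was 16.8% of all genes and the count 0 of 8. For clone 18 against the same 5 control tumors it was 24.7% of all genes and 0 of 8, with only mt-Nd1 under 0.05 before adjustment. Between the clones it was 4.62% of all genes and again 0 of 8. None of the 8 was without overlap between the groups in any of the 4 comparisons either, beside 8.58%, 15.0%, 18.3% and 6.02% of the genes averaging at least 10, in the same order. edgeR and DESeq2 on the recovered reads also called 0 of 8 in each of the 4 comparisons. A p above the threshold does not show that the levels were alike, and the 95% intervals between knockout and control reached from 1.38 below to 0.96 above 0 on the log2 scale. The median log2 difference over the 8 was 0.09 between knockout and control, beside -0.02 over all genes tested. It was 0.23 in clone 4 (all genes -0.01) and -0.04 in clone 18 (all genes -0.02). Without tumor 10 the median in clone 4 was -0.16, with 8 of 8 below 0, and that of both clones together -0.09, so their sign rested on this tumor. In whole tumors, fewer cells of a type and less RNA per cell cannot be told apart.

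**Figure D3:**
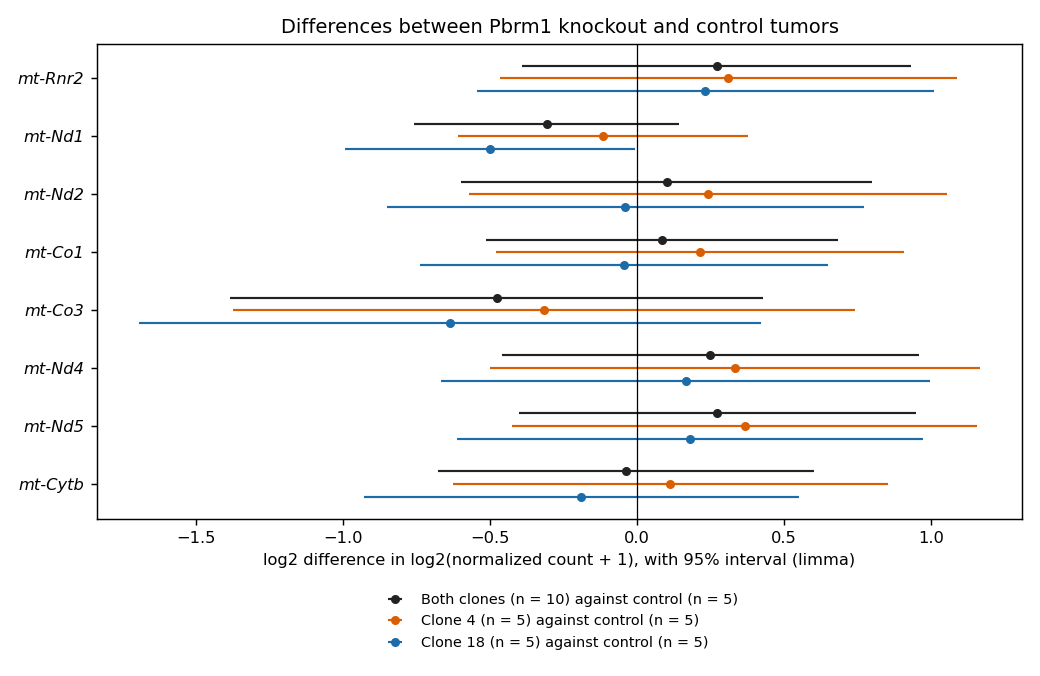
log2 difference from the 5 control tumors (horizontal) with its 95% interval from limma, for both clones together (black, n = 10), clone 4 (orange, n = 5) and clone 18 (blue, n = 5). The 3 comparisons share the control tumors. All intervals cross 0 except that of mt-Nd1 in clone 18, from -0.99 to -0.01, which did not pass after adjustment over all genes.

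The same transcripts were also taken as a share of each tumor's normalized total. The 8 together made up 1.15%, 1.51%, 1.35%, 2.01% and 1.33% in the control tumors. They made up 1.05%, 1.13%, 1.66%, 1.69% and 4.85% in clone 4 and 1.82%, 2.43%, 1.51%, 1.10% and 1.43% in clone 18. The groups overlapped, and tumor 10 stood above the next tumor, number 12, by a wide margin. The control mean was 1.47% ± 0.33, that of clone 4 was 2.08% ± 1.58 and that of clone 18 was 1.66% ± 0.50 (SD, n = 5 each). Without tumor 10 the mean of clone 4 was 1.38%, below the control, so the order of clone 4 and control rested on that tumor. The 7 messenger RNAs among the 8 took 0.42% to 0.75% of the total in the control, 0.38% to 1.51% in clone 4 and 0.37% to 0.82% in clone 18.

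**Figure D4:**
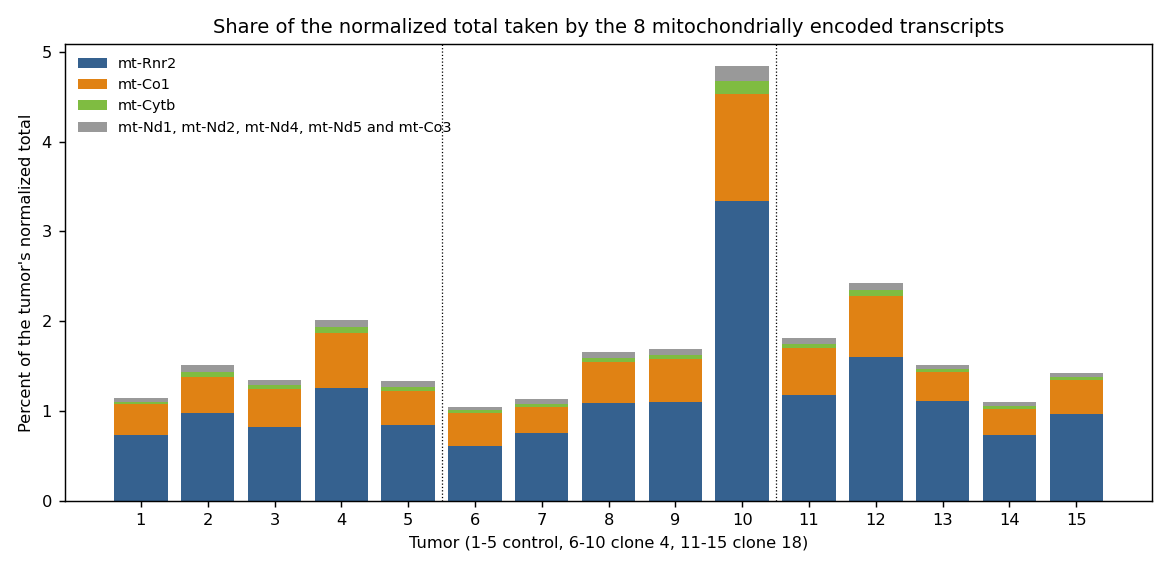
Percentage of each tumor's normalized total taken by the 8 transcripts (bar height, from 0), stacked by gene, for tumors 1 to 15. Tumor 10 reaches 4.85%, while the other tumors lie between 1.05% and 2.43%, and mt-Rnr2 and mt-Co1 make up most of each bar.

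Tumor 10 was the highest in all 8 transcripts, but not by the same factor. Against the mean of the other clone 4 tumors, it held 4.47 times as much mt-Nd5, 4.33 times mt-Nd4, 4.22 times mt-Nd2, 4.06 times mt-Cytb and 4.02 times mt-Rnr2. The ribosomal RNA mt-Rnr1 stood at 4.37 times. The factor was lower for mt-Co1 at 3.20, for mt-Co3 at 2.39 and for mt-Nd1 at 2.19, as it was for mt-Nd6 at 2.20, mt-Atp8 at 2.00 and mt-Nd3 at 1.62. The transfer RNA mt-Tt was at 51.2 in tumor 10, inside the range of 18.3 to 98.2 over the other tumors. The nuclear genes of the respiratory chain stood near or below the other tumors of the clone. The median of 79 nuclear subunits of complexes I to V lay at -0.08 on the log2 scale in tumor 10 against the other clone 4 tumors, with 14 of 79 higher, beside 2.05 for the 8 mitochondrial transcripts. The summed count of 12 genes for outer membrane and other proteins that track mitochondrial mass was 168579 in tumor 10, within the range of 141842 to 181289 in the other tumors.

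The summed markers of fibroblasts, neutrophils, skeletal muscle and endothelium were also highest in tumor 10, whereas those of adipocytes were lowest. The summed normalized count of 10 fibroblast markers was 197424 there against 21472 to 135450 in the other tumors, with 5 of the 10 at their highest in that tumor. For 9 neutrophil markers it was 4248 against 701 to 2166, with 5 of 9 at their highest. For 15 skeletal muscle markers, a tissue rich in mitochondria, it was 4842 against 191 to 3509, with 4 of 15 at their highest. The sum of 10 endothelial markers was 15926 against 7330 to 15397, with 2 of the 10 at their highest. That of 8 adipocyte markers was 7838 against 10280 to 19692, and only 3 of the 8 averaged at least 10 normalized counts. The sums for T cells, macrophages and red cells in tumor 10 lay within the range of the other tumors. Tumors 11, 14 and 15 of clone 18 also had muscle sums of 3376 to 3509, and their mitochondrial shares were 1.82%, 1.10% and 1.43%. By group, the fibroblast sum ran from 55951 to 92780 among control tumors, from 21472 to 197424 in clone 4 and 69222 to 135450 in clone 18. The neutrophil sum was 965 to 2073, 701 to 4248 and 1065 to 2166, and the muscle sum 335 to 711, 191 to 4842 and 276 to 3509, in the same order of groups. No marker of the fibroblast, neutrophil and muscle lists was at 0 in tumor 10, 3 of the 8 adipocyte markers were, and the part of these cells in its mitochondrial level was not tested.

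Because a high or low tumor moves all transcripts together, their makeup was also compared within tumors. mt-Rnr2 held 61.0% to 64.5% of the summed counts of the 8 in the control, 58.2% to 68.8% in clone 4 and 64.6% to 73.4% in clone 18. mt-Co1 held 27.2% to 31.04%, 24.8% to 35.4% and 21.1% to 29.4% in the same order of groups. For mt-Nd1 the share was 2.29% to 3.13% among control tumors, against 1.34% to 2.39% for clone 4 and 1.45% to 2.15% for clone 18. In clone 18 the mt-Nd1 share thus lay below every control tumor, and that of mt-Rnr2 lay just above the highest of them. For the other 6 transcripts the ranges of clone 18 and control overlapped. Counts rather than shares were without overlap between these groups for 18.3% of the genes averaging at least 10. These shares add up to the whole, so a lower share of one transcript raises the others.

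The ratio of mt-Rnr2 to mt-Nd1, the neighbours on either side of mt-Tl1, does not depend on the other transcripts. It comes from the same counts as these shares, so it is not separate evidence of a difference. It was 24.8, 25.4, 20, 27.4 and 20.2 in the control tumors. It was 24.3, 30.6, 28.6, 27.9 and 51.2 in clone 4 and 31.97, 45.8, 47.0, 31.1 and 41.04 in clone 18. All 5 clone 18 tumors and 4 of 5 clone 4 tumors lay above every control tumor. This ratio was singled out after the values were seen, and no test was made of it. Of the 7 ratios of another member to mt-Nd1, that of mt-Rnr2 was the only one without overlap between clone 18 and control. For mt-Co1, mt-Nd4 and mt-Nd5, however, 4 of 5 clone 18 tumors lay above every control tumor. For mt-Cytb, mt-Nd2 and mt-Co3 it was 3 of 5. Among the further mitochondrial genes averaging at least 10, mt-Rnr1, mt-Nd6 and mt-Atp8 were also without overlap relative to mt-Nd1, which makes 4 of 12 ratios in all. For comparison, when mt-Nd1 was divided by each of 16481 nuclear genes, the 5 clone 18 tumors lay below all control tumors for 10.8% of the genes.

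Among the further mitochondrial genes, the ratio of the small to the large ribosomal RNA was compared as well. In clone 18, 3 of 5 tumors lay above every control tumor, and in clone 4 it was 0 of 5. mt-Rnr1 stood at 0.16 to 0.20 of mt-Rnr2 in the control and at 0.17 to 0.20 in clone 4, and at 0.18, 0.25, 0.36, 0.20 and 0.16 in clone 18. The value of 0.36 belongs to tumor 13, whose mt-Rnr1 count of 170964 was the second of all tumors after tumor 10, with 302428. The count of mt-Rnr1 was 72175 ± 23868 (SD, n = 5) in the control and 114100 ± 79422 (SD, n = 10) in the knockout tumors, a log2 difference of 0.46 (95% interval -0.28 to 1.21, adjusted p = 0.393 from limma).

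**Figure D5:**
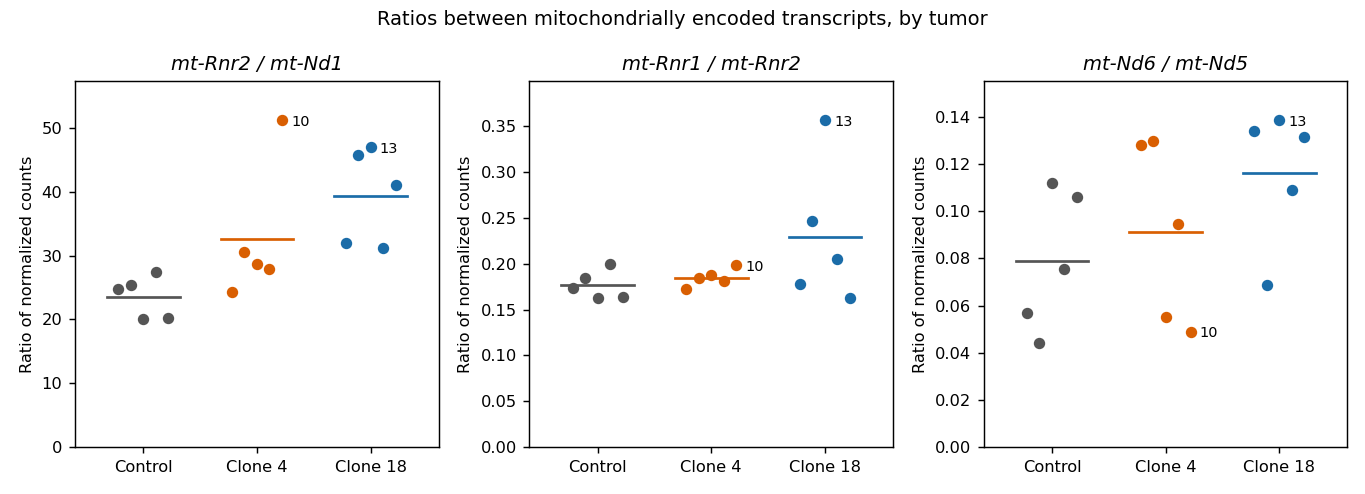
Ratio of normalized counts (vertical, from 0) for 3 pairs of mitochondrially encoded genes in each of the 15 tumors, with lines at the means of 5. For mt-Rnr2 to mt-Nd1 the clone 18 tumors, at 31.1 to 47.0, lie above the control tumors, at 20 to 27.4. For mt-Rnr1 to mt-Rnr2 tumor 13 stands at 0.36, and for mt-Nd6 to mt-Nd5 the groups overlap.

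mt-Nd6 and mt-Atp8 came closer to the threshold than any of the 8. mt-Nd6, a complex I subunit and the only messenger RNA on the other strand, had normalized counts of 281, 367, 713, 693 and 490 in the control tumors. They were 469, 1022, 390, 649 and 1391 in clone 4 and 1006, 753, 853, 649 and 910 in clone 18. In clone 18, 4 of 5 tumors lay above every control tumor. The log2 difference between knockout and control was 0.67 (95% interval 0.11 to 1.23, adjusted p = 0.0832 from limma), and for clone 18 against the control it was 0.79 (0.14 to 1.44, adjusted p = 0.0726). The exact permutation tests gave unadjusted p values of 0.0513 and 0.0317. Leaving out tumor 8 brought the first to an adjusted p of 0.0318, and leaving out tumor 3 or tumor 10 brought the second to 0.0498 or 0.0412.

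mt-Atp8, a small subunit of ATP synthase, was at 47.6, 89.8, 98.3, 115 and 80.4 in the control tumors. It was at 69.4, 271, 82.6, 166 and 295 in clone 4 and at 135, 91.0, 141, 99.2 and 265 in clone 18. Of the 10 knockout tumors, 6 lay above every control tumor. The log2 difference was 0.78 (95% interval 0.07 to 1.48, adjusted p = 0.108 from limma). DESeq2 called it, with a log2 difference of 0.91 (adjusted p = 0.0245), and it also called clone 4 against the control at 1.03 (adjusted p = 0.0311). The transfer RNAs mt-Tq and mt-Tp held at most 22 and 7 reads in a tumor, and a count of 0 in some tumors allows up to 3 reads, so no difference was detectable at this depth.

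The 8 transcripts varied together from tumor to tumor within the groups. Over the 15 tumors, with log2 values centred in each group, the 28 pairs had correlations from 0.49 to 0.97 with a median of 0.90. Without tumor 10 they ran from 0.29 to 0.94 with a median of 0.78, over 14 tumors. The tumors share their size factor across genes, and no test was made of these correlations. The transcript closest to the mean of the 8 was mt-Rnr2, at 0.98, followed by mt-Cytb, at 0.98, and the most distant was mt-Co3, at 0.76. Each of the 8 is part of that mean, which raises its correlation with it. Of the other mitochondrial genes, which are not part of it, mt-Rnr1 reached 0.88, mt-Nd6 0.56, mt-Atp8 0.45, mt-Nd3 0.37 and mt-Tt 0.30.

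The 5 nuclear genes whose pattern over the 15 tumors was most like the mean of the 8 were Ifitm1 at 0.97, Clec4d at 0.96, Anxa2 at 0.96, Nt5e at 0.94 and Basp1 at 0.94. Without tumor 10, the correlations were 0.93, 0.89, 0.89, 0.91 and 0.85. Clec4d encodes a receptor of myeloid cells, Anxa2 a membrane-binding annexin and Nt5e an enzyme that makes adenosine outside the cell. They are the highest of 16481 nuclear genes averaging 10 normalized counts or more, and nothing is drawn from the order.

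Of the nuclear genes that serve the mitochondrial genome, between 4.76% and 36.4% of a list passed the test between knockout and control, beside 22.1% of all genes. Of 11 genes for mitochondrial transcription, 3 rose and 1 fell. Mrpl12, a ribosomal protein that also binds the mitochondrial RNA polymerase, rose (log2 difference 0.38, adjusted p = 0.0215 by limma) and the transcription factor Tfb2m fell by 0.28 (adjusted p = 0.00422). Of 14 genes for copying mitochondrial DNA, 3 rose and none fell: Lig3, a DNA ligase, by 0.31, Ssbp1, a protein that binds single-stranded DNA, by 0.28, and Polg, the DNA polymerase, by 0.25. Of 21 genes for RNA processing and stability, only the helicase Supv3l1 passed, with a rise of 0.26. Of 13 translation factors, the release factor Mtrf1l rose by 0.47 and the membrane insertase Oxa1l fell by 0.22. Of 13 regulators of mitochondrial biogenesis, only Pprc1 passed, with a rise of 0.30, and of 77 mitochondrial ribosomal proteins 6 rose and 9 fell. Several of these calls were lost when 1 tumor was left out. That of Mrpl12 was lost without control tumor 2 or 5 (adjusted p = 0.0754 and 0.0715 by limma) and that of Oxa1l without control tumor 2 or 4 (0.0511 and 0.0622). That of Polg was lost in 8 and that of Pprc1 in 11 of the 15 fits that left out 1 tumor, with an adjusted p of up to 0.124 and 0.123 by limma, both without control tumor 4.

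The nuclear partners of the 8 transcripts in the respiratory chain gave few calls. Of 79 nuclear subunits of complexes I to V, 1 rose and 10 fell, 13.9% in all beside 22.1% of all genes, with a median log2 difference of -0.06. In complex I, which holds mt-Nd1, mt-Nd2, mt-Nd4 and mt-Nd5, 3 of 36 nuclear subunits fell, among them Ndufs4 by 0.34, and Ndufb2 rose by 0.37. None of 4 in complex II and none of 9 in complex III, the complex of mt-Cytb, passed. In complex IV, the complex of mt-Co1 and mt-Co3, 4 of 15 fell, among them Cox6a2, the isoform of heart and skeletal muscle. Cox6a2 fell by 1.95 on the log2 scale from a low level, Cox6c fell by 0.29 and Cox5a fell by 0.22. The 15 skeletal muscle markers had a median log2 difference of 1.61, with 0 higher and 1 lower after adjustment, beside 22.1% of all genes called. In ATP synthase 3 of 16 fell, and Atp5j fell by 0.38. Of the 12 genes that track mitochondrial mass, Tomm20 fell by 0.34 and Vdac2 by 0.19. Without control tumor 4 the adjusted p by limma was 0.0511 for Cox6c, 0.0597 for Vdac2 and 0.0958 for Cox5a. The call of Cox5a was also lost without control tumor 3 or 5. That of Ndufb4, among the 3 that fell in complex I, was lost in 12 of the 15 fits that left out 1 tumor. Its adjusted p by limma reached 0.15 without control tumor 4, and edgeR and DESeq2 did not call it. Of 10 macrophage markers, 1 was higher and 5 were lower in the knockout tumors, beside 22.1% of all genes called. Of 10 T cell markers 2 were lower after adjustment, a share near that of all genes. Their median log2 difference was nevertheless -1.21, beside -0.02 over all genes. An unadjusted p under 0.05 from limma was reached by 7 of the 10, beside 6134 of 18250 genes. The macrophage sum was 86871 to 115470 among control tumors, 72170 to 91895 for clone 4 and 65408 to 85730 for clone 18, and the T cell sum was 513 to 1590, 603 to 884 and 557 to 691. Macrophage sums of clone 4 and control overlapped, those of clone 18 lay below every control tumor, and T cell sums overlapped in all groups. None of these markers was at 0 in all tumors, and their part in the nuclear differences was not tested.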

How the data were processed

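Bulk RNA sequencing of 15 Renca tumors was analysed, 5 each of control, clone 4 and clone 18, as grouped by the sample labels. The deposited values are a signal, namely counts that the authors obtained with TopHat2 on mm10 and HTSeq and divided by a DESeq size factor per tumor, rounded to 0.1. Versions, annotation, library kit, strand setting and gene filter are not given in the sources used here. Every value up to 8000 was a whole number of reads times a constant of its tumor (0.881 to 1.31), so reads could be recovered. The tolerance was 0.05, widened slightly in proportion to the value. Values above 8000, among them all those of mt-Rnr2, mt-Co1, mt-Cytb and mt-Nd1, were divided by the same constant without this check. The limit set by a count of 0 covers counting error only, while the 95% intervals are those of limma and cover the spread between tumors.

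Of 18279 genes, 18250 with a value above 0 were tested on log2(normalized count + 1) with limma 3.58.1 with trend in R 4.3.3, in 1 fit of knockout against control and 1 fit of 3 groups, and p values were adjusted over all genes by the Benjamini-Hochberg method at 0.05. On this scale the fold change of a low gene is understated. Exact permutation tests were two-sided, over every way to divide the tumors into the group sizes. P values measure the spread between tumors, which come from 1 line per group, and not between lines made independently. The knockout fit takes the tumors of both clones as 1 group, so its spread also holds the difference between the clones. The fit of 3 groups shares 1 estimate of the spread per gene. Alternatives were pseudocounts of 0.1 and 5, a mean of at least 10, 4 other scalings, limma without trend, the count tests of edgeR 4.0.16 and of DESeq2 1.42.0 on whole reads, and each tumor left out. The fits were also run on simulated counts, in which all genes had the same relative spread beyond counting error. No simulated tumor was an outlier and the clones did not differ. That run therefore says little about genes as variable between tumors as these. Gene positions and sequences are from GENCODE M21 on GRCm38, and nuclear copies were found with blastn 2.17.0 among annotated transcripts only, not the whole genome.

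Named genes were the 10 members, the other mitochondrial genes, 8 listed pseudogenes and Pbrm1. Up to 3 genes of largest difference among those called in each list, and the 5 nuclear genes most like the members, were named too. Of the 8 pseudogenes only Gm10221 was analysed. Its log2 difference between knockout and control was -0.52 (adjusted p = 0.101 from limma), with 7 of 10 knockout tumors below every control tumor. Gm13340 and the mt-Rnr2 to mt-Nd1 ratio were added after the values were seen. The members and lists were chosen with earlier results of these data known.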

Additional observations from a re-analysis of the deposited data

Results flagged for a closer look

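A tumor was marked when its gap to the nearest tumor of its group of 5 was more than 0.71 of the group's range. This was applied to 72 groups of values, chance marks about 1 in 20 (3.6 of 72), and 13 were marked. The values of 1 tumor are not independent of one another.

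Tumor 10 accounted for 9 of the 13. Its normalized count was 8710 for mt-Nd2 (1056 to 2534 in the other clone 4 tumors), 10157 for mt-Nd4 (1315 to 2808) and 28435 for mt-Nd5 (3663 to 7873). It was 64419 for mt-Cytb (11852 to 19529), 549623 for mt-Co1 (124829 to 208952), 1525918 for mt-Rnr2 (256545 to 472350) and 302428 for mt-Rnr1 (44391 to 88507). The summed share of the 8 transcripts was 4.85% there, against 1.05% to 1.69%. The last mark in this tumor was low rather than high, since mt-Nd1 made up 1.34% of the 8 transcripts, against 2.17% to 2.39% in the other clone 4 tumors.

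The other marks fell on 4 different tumors. Control tumor 4 had the highest mt-Co1 count of its group, 269449 against 150514 to 179013. Clone 18 tumor 15 held 265 of mt-Atp8, against 91.0 to 141 in the other tumors of that clone. In clone 18 tumor 14, mt-Nd2 made up 0.482% of the 8 transcripts, against 0.259% to 0.320%. Control tumor 1 held 7.0 of mt-Tp, against 0 to 1.1, which is a difference of a few reads.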

How the results depend on the processing

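No paired analysis was possible because the labels hold no number shared by tumors of separate groups. The count of called transcripts stayed at 0 of 8 in the 4 comparisons under the 10 other settings and when single tumors were left out, except that clone 18 against the control ranged from 0 to 1, with mt-Nd1 called without tumor 10. Without the ribosomal RNAs the summed share was 0.551% in the control and 0.547% in clone 18. Leaving out single tumors moved the mean share between 1.34% and 1.55% in the control, 1.38% and 2.33% in clone 4, and 1.47% and 1.80% in clone 18.

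Uncalled differences near 0 changed sign in some settings, and the cause was not tested. With quantile normalization, mt-Co1 gave -0.10 for knockout and -0.0072 for clone 4 against the control, and mt-Nd2 gave 0.0090 for clone 18, as upper-quartile scaling did with 0.0011. With edgeR and DESeq2, mt-Cytb gave 0.14 and 0.13 and mt-Nd3 gave 0.052 and 0.040 for knockout, mt-Co1 gave 0.027 and 0.014 for clone 18, and mt-Rnr1 gave -0.027 and -0.034 between the clones.

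Leaving out single tumors, the log2 difference of knockout against control ranged from -0.081 to 0.22 for mt-Co1, -0.24 to 0.080 for mt-Cytb, -0.11 to 0.23 for mt-Nd2 and -0.17 to 0.054 for mt-Nd3. For clone 4 against the control it ranged from -0.13 to 0.41 for mt-Co1, -0.30 to 0.31 for mt-Cytb, -0.35 to 0.030 for mt-Nd1, -0.19 to 0.57 for mt-Nd2, -0.10 to 0.64 for mt-Nd4, -0.078 to 0.66 for mt-Nd5, -0.060 to 0.63 for mt-Rnr1 and -0.10 to 0.54 for mt-Rnr2. For clone 18 it ranged from -0.22 to 0.11 for mt-Co1, -0.22 to 0.087 for mt-Nd2 and -0.022 to 0.32 for mt-Nd4. Between the clones it ranged from -0.42 to 0.094 for mt-Atp8, -0.45 to 0.085 for mt-Co1, -0.62 to 0.052 for mt-Co3, -0.50 to 0.11 for mt-Cytb, -0.61 to 0.15 for mt-Nd2, -0.47 to 0.27 for mt-Nd4, -0.48 to 0.26 for mt-Nd5, -0.078 to 0.61 for mt-Rnr1 and -0.31 to 0.33 for mt-Rnr2. Depth limits mt-Co3, mt-Nd3 and the transfer RNAs, which had few reads in each tumor. Calls in the nuclear lists rest on few genes. Those for copying mitochondrial DNA numbered 5 in place of 3 with 3 of the scalings and with both count tests. Leaving out single tumors, the calls ranged from 2 to 5 for transcription (4 reported), 9 to 16 for the ribosome (15), 2 to 5 for complex I (4) and 1 to 4 for complex IV (4), lowest without control tumor 2 or 5, tumor 3, any of 5 tumors and control tumor 4, respectively.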
